A study of Mus musculus with 16 samples.

Results

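Promoters of long noncoding RNA (lncRNA) genes were examined in ATAC-seq peak lists of mouse hematopoietic stem and progenitor cells (HSPCs). Peaks of the 16 libraries were merged where they shared 1 bp on chromosomes 1 to 19, which gave 291316 regions. A region was taken as a lncRNA promoter when it lay within 1 kb of the start of a lincRNA or antisense gene and more than 3 kb from every protein-coding transcript start. This left 3623 regions, named for 2718 lncRNA genes, of which 2434 lay at lincRNA genes and 1189 at antisense genes. The second condition removed many candidates, since 5530 regions lay within 1 kb of a lncRNA start before it was applied.

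HSPCs were sorted from bone marrow, and each library was made from 50000 viable cells pooled from a pair of age-matched mice. A library therefore stands for a pair and not for a single mouse. Spread between libraries mixes spread between pairs with any difference in handling, and within a genotype it spans both deposit sets defined below. The 4 genotypes had 4 libraries each: WT (Ep300 fl/fl without Cre), P300KO (Mx1-Cre with Ep300 fl/fl), TET2KO (Tet2-/- with Ep300 fl/fl and no Cre) and P300KO_TET2KO (Mx1-Cre, Ep300 fl/fl, Tet2-/-). Every group carried the floxed Ep300 alleles and, per the study's methods, received poly(I:C), which turns on the interferon-driven Mx1-Cre in blood cells and in other interferon-responsive cells. Deletion is therefore induced in young adults for Ep300 and present from the germline for Tet2, and the Cre was carried by the p300-loss groups and by no other group, so Cre and p300 loss cannot be told apart. Of each genotype, the label of replicates 1 and 2 mentions a merged file of peaks while that of replicates 3 and 4 mentions none, and these are called deposit sets 1 and 2.

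LncRNAs are transcripts without a protein product. Some act in the nucleus, as Malat1 does in speckles and Neat1 in paraspeckles, some are processed into microRNAs, and others silence imprinted neighbours or mark a regulatory element by their own transcription. p300 is a histone acetyltransferase that works at enhancers and promoters, and Tet2 oxidises methylated cytosine. Whether either enzyme acts at the lncRNA starts examined here was not measured. An ATAC-seq peak shows that DNA was open to a transposase and does not measure the RNA. Strength was read as the rank percentile of a peak within its own list by −log10 p, with 100 the strongest.

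Reference sequence is shown for 200 bp around the strongest summit of 5 regions, because the regions differed in base composition and in the factor strings they held. All are from the plus strand of mm10 and are printed in lower case. In the first 3, at the promoters of Malat1 (chr19:5803510-5803709), Mir17hg (chr14:115042148-115042347) and Gm27201 (chr9:32508781-32508980, inside Fli1), capitals mark CpG.
Malat1: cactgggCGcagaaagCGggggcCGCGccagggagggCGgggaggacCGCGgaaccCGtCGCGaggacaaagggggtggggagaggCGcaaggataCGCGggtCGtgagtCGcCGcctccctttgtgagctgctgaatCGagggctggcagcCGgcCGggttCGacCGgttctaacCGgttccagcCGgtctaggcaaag
Mir17hg: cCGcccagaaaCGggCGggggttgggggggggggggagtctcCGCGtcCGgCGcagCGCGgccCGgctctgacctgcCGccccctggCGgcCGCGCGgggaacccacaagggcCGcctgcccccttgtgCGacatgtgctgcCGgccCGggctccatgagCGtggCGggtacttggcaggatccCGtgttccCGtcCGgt
Gm27201: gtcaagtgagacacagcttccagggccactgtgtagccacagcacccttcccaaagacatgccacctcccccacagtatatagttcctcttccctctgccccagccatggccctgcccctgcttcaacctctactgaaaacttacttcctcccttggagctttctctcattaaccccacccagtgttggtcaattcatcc
The Malat1 window held 23 CpG and the Mir17hg window 24, whereas the Gm27201 window held 0, and all 3 regions had a peak in 16 of 16 libraries.

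The other two lay at promoters whose rank was lower after p300 loss: Gm36756 (chr12:100986611-100986810) and Gm31804 (chr14:15769911-15770110). Capitals mark TGTGGT (Runx), TGACGTCA (Creb) or the core of the Ctcf motif on either strand.
Gm36756: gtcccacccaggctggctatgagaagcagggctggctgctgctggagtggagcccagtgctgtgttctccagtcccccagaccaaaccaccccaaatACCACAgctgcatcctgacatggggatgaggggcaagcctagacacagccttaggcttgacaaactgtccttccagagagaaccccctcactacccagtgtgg
Gm31804: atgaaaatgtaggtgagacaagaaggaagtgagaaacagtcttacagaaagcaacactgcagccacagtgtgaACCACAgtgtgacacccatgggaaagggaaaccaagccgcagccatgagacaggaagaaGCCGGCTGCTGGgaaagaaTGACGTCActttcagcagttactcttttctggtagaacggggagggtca
The Gm36756 window held the Runx string and the Gm31804 window the Runx, Creb and Ctcf strings without overlap. Of other promoters with a lower rank after p300 loss, described below, 4930519L02Rik also held the Runx string. Gm15318, which changed most, held none of these strings, and neither did Gm15122 or Gm29243. Of all 291316 merged regions, windows of the same length held the Runx string in 21.9%, the Creb string in 0.347% and the Ctcf string in 6.14%. Among the 841 lncRNA promoters found in 16 of 16 libraries, as both of these were, the shares were 19.6%, 1.19% and 9.75%. A match is a run of letters and not a bound site.

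Among markers, the promoters of Kit, Cd34, Flt3, Mecom and Hlf had a peak in 16 of 16 libraries and those of Ly6a and Slamf1 in 15. Of the lineage markers, Ms4a1 and Ly6g had a promoter peak in 0 libraries, Cd79a in 4 and Cd3e in 6, but Itgam in 16. Of the non-blood genes Alb had none, whereas Neurod1 had a peak in 14 libraries and Myod1, Cdh1 and Col1a1 in 16, and whether these genes were expressed was not measured. The promoters of Ep300 and Tet2 had a peak in 16 of 16 libraries, which does not test either deletion. The lists held 86039 to 110055 peaks in set 1 and 130610 to 137335 in set 2, read depth is unknown, and a missing peak means not detected in that list. WT replicate 1 stood apart: it shared a median of 44.0% of the lncRNA promoters found in either list of a pair (range 43.1% to 50.6%), against medians of 57.9% to 76.9% for the other 15 libraries.

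About 1 in 4 regions taken as lncRNA promoters was open in every library. Each region had a peak in at least 1 library, so lncRNA starts without any peak are not counted. Of 6425 lncRNA genes more than 3 kb from a protein-coding transcript start, 2708 (42.1%) were the nearest lncRNA start of such a region. The region covered the annotated lncRNA start in 1190 of 3623 cases (32.8%). Of 3623 regions, 841 (23.2%) had a peak in 16 of 16 libraries, 1544 (42.6%) in 2 to 15, and 1238 (34.2%) in 1 library. Other distal regions lay more than 1 kb from every lncRNA start and more than 3 kb from every protein-coding transcript start. They were found in 16 of 16 libraries in 8.99% of 246851 cases. Protein-coding promoters, within 1 kb of a protein-coding transcript start, were found in 16 of 16 libraries in 53.5% of 25469. Of the 1238 regions seen once, 884 came from set 1, with 305 in WT replicate 1 and 199 in WT replicate 2.

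**Figure D1:**
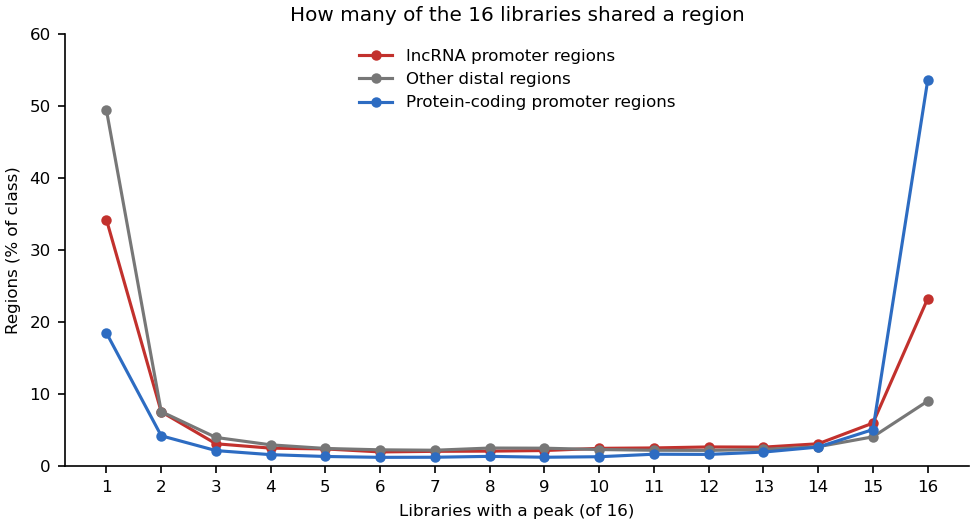
Share of regions (y axis, percent of the class) by the number of libraries that had a peak there (x axis, 1 to 16) for lncRNA promoters, other distal regions and protein-coding promoters. All 3 curves are high at both ends, and lncRNA promoters lie between the other classes at 1 library (34.2%) and at 16 libraries (23.2%).

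In every library lncRNA promoters were found more often than other distal regions and less often than coding promoters. A peak was present at 47.6% ± 6.77 of lncRNA promoters (mean ± SD, n = 16 libraries), at 32.1% ± 6.49 of other distal regions and at 70.3% ± 3.70 of coding promoters. The difference from other distal regions was 15.5 ± 1.88 percentage points, positive in 16 of 16 libraries, and that from coding promoters was -22.7 ± 3.34, negative in all 16. The median rank percentile of the peaks present followed the same order, with 60.8 ± 1.67 for lncRNA promoters, 45.1 ± 1.68 for other distal regions and 87.2 ± 0.621 for coding promoters. In a two-sided exact sign-flip permutation test over the 16 libraries each of these 4 differences gave p = 3.05e-05, the smallest this design can give, and a Benjamini-Hochberg adjusted p of 3.66e-05. The regions were merged from these same lists and were fixed across libraries. This p therefore measures agreement between libraries and not spread between regions.

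Base composition varied with how widely a promoter was shared. The 336 CpG-rich lncRNA promoters, with at least 50% GC and a CpG ratio of observed to expected of at least 0.6 in the summit window, were found in 16 of 16 libraries in 57.4% of cases and in 1 library in 9.82%. For the other 3287 these shares were 19.7% and 36.7%. Even among the 841 regions found everywhere, 22.9% were CpG-rich, against 6.55% of other distal regions and 73.5% of coding promoters found in 16 of 16 libraries. Among these same shared regions, the Ctcf string was present in 9.75% of lncRNA promoters, 15.3% of other distal regions and 4.23% of coding promoters. The Runx string stood in 19.6%, 29.4% and 9.54% of the same classes. The Spi1 string, GAGGAAG on either strand and present in 15.6% of all merged regions, was in 21.5% of the lncRNA promoters and in 22.6% of the distal regions, but in 12.1% of the coding promoters. These shares are descriptions without a test.

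The 10 strongest lncRNA promoters lay in the top 3% of every list. Their mean rank percentiles ran from 98.7 at Gm29264, 18.04 kb from the start of Alox5ap, to 99.8 at Gm10010 (chr6:128200069-128201606) and at Gm15287 (chr13:111724888-111726127). The others were 1700096K18Rik, 1700113A16Rik (34.9 kb from Mef2d), 6720427I07Rik, Gm33195 (79.5 kb from Cd83), AC110262.3, Gm11527 and Gm6410, and the lowest single value among all 10 was 97.5, at Gm11527. Of these 10 regions, 8 were CpG-rich, 9 covered the annotated lncRNA start and 6 held CCAAT, the NF-Y string, which stood in 21.5% of all merged regions.

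Of 60 lncRNA symbols listed for known roles, 24 had a region that met the rule, with 34 regions in all, and 15 symbols had a region open in 16 of 16 libraries. Symbols without a region include genes that start close to a coding gene or are absent from the annotation under that name. Among nuclear and widely expressed lncRNAs, Malat1 (chr19:5801931-5803916) ranked at 97.7, 95.7, 97.5 and 97.8 in WT replicates 1 to 4, 95, 95, 97.6 and 97.9 in P300KO, 95.9, 95.7, 98.4 and 98.1 in TET2KO, and 94.8, 94.0, 96.8 and 97.4 in P300KO_TET2KO. The genotypes overlapped, and within each of P300KO, TET2KO and P300KO_TET2KO the set 1 libraries were the lower ones. Epb41l4aos had a mean rank percentile of 96.9 (91.7 to 98.8), the snoRNA host Snhg12 91.8 (90.0 to 93.7) and Neat1 89.7 (85.6 to 94.2). Lncpint, a p53-linked lncRNA, was absent from the list of WT replicate 1 and ranked between 75.1 and 83.1 in the other 15, whereas Miat was found in 13 libraries at 4.8 to 47.7.

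Hosts of blood microRNAs were open throughout. Mir17hg, the precursor of the miR-17-92 cluster, had a mean rank percentile of 92.7 (90.2 to 95.7), and Mir155hg, the host of miR-155, 88.2 (79.0 to 91.9), with its lowest values in WT replicate 1 and P300KO replicate 2. Mir142hg, whose product is abundant in blood cells, had 3 regions near its start. The one over the start (chr11:87755004-87755866) had a mean of 89.9 (86.6 to 91.8) and one 537 bp away had 76.1 (69.9 to 82.5), both in 16 of 16 libraries. The third (chr11:87754678-87754913, 664 bp from the start) ranked at 69.3, 48.3, 49.1 and 52.7 in WT and was absent from all 4 P300KO lists, while TET2KO and P300KO_TET2KO each had it in 3 of 4. In contrast the hosts of brain microRNAs sat lower, Mir9-3hg at 53.6 (34.8 to 76.8) and Mir124a-1hg at 50.8 (0.4 to 68.1), with the lowest value of the latter in P300KO replicate 2.

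Imprinted lncRNAs differed widely among themselves. Kcnq1ot1, which silences neighbours on the paternal chromosome, was open in 16 of 16 libraries at a mean of 93.5 (90.8 to 94.9). The start region of Airn, antisense to Igf2r, was missing in WT replicate 1 and ranged from 5.7 to 67.7 in the other 15 libraries. H19 was found in 9 libraries at 0.9 to 35.1 and Meg3 in 1 library, WT replicate 2, at 31.1.

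Among lncRNAs beside regulators of growth, Lockd (chr6:134926881-134929211), 6.4 kb from the start of the cell-cycle inhibitor gene Cdkn1b, ranked at 95.9, 96.1, 96.1 and 95.4 in WT and at 92.5 to 96.5 in the 12 other libraries. Pvt1 (chr15:62037621-62039268), 50.2 kb from the Myc start, had 80.8, 74.6, 73.0 and 76.9 in WT and 77.0, 70.6, 75.1 and 72.4 in P300KO, against 75.2, 77.8, 76.5 and 69.9 in TET2KO and 76.4, 76.3, 76.6 and 78.7 in P300KO_TET2KO. All 4 genotypes overlapped at Pvt1, and its change with p300 loss was -0.01 ± 0.06 (SE) on the normal-score scale explained below (limma adjusted p = 0.973). Trp53cor1, a p53 target 11.6 kb from Cdkn1a, had a mean of 81.8 (71.7 to 89.0). Mirt1 had 90.5 (86.2 to 95.4), and Bvht, known from heart development, 83.7 (76.1 to 88.3). Gm14005, also known as Morrbid and linked to survival of myeloid cells through Bcl2l11, had a weak peak near its start in 4 libraries (6.2 to 40.6), and Hoxb5os in 4 (8.7 to 34.7).

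**Figure D2:**
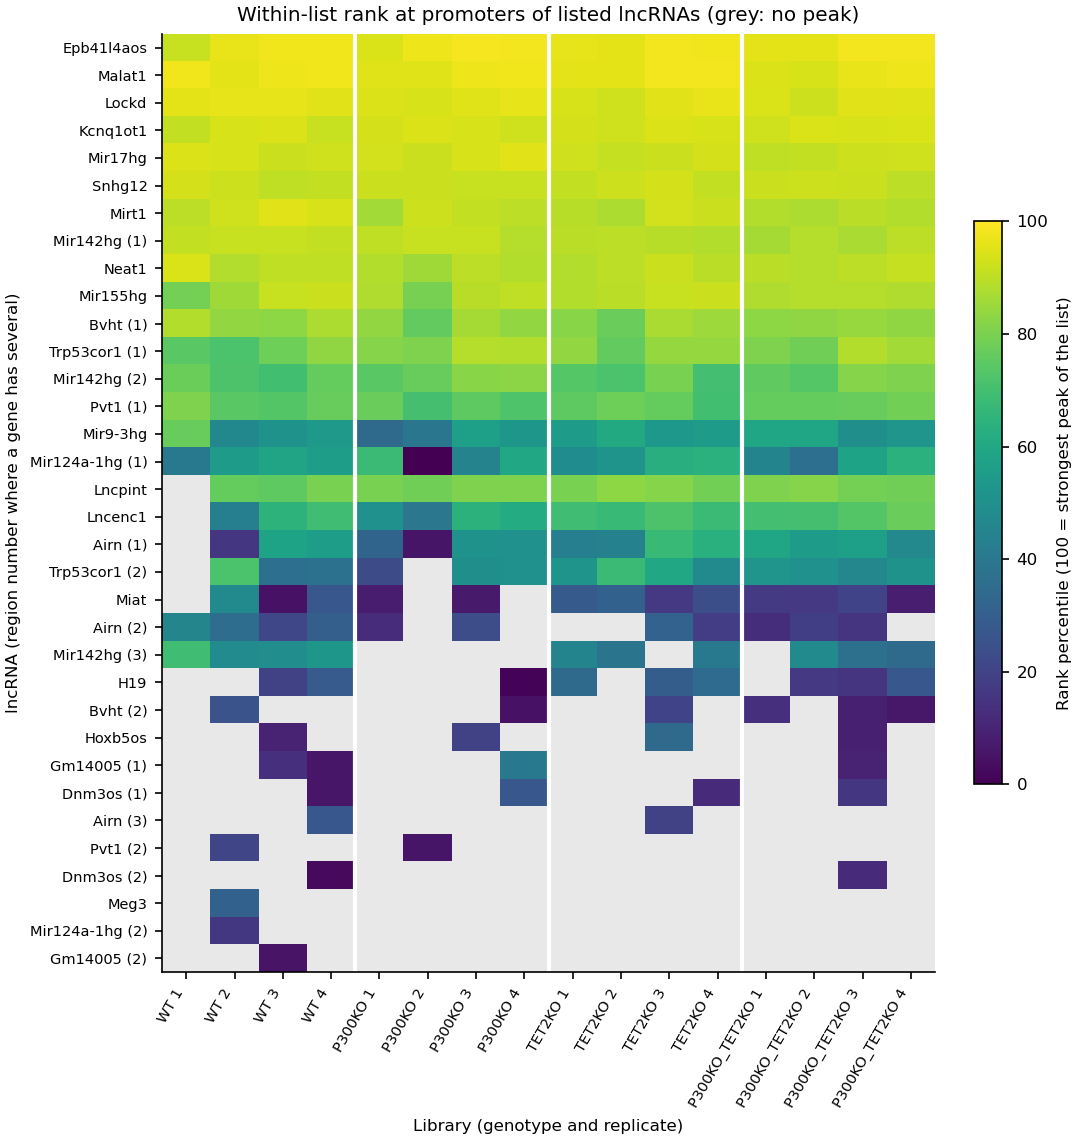
Rank percentile within each list (color, 0 to 100) at the 34 promoter regions of listed lncRNAs (vertical axis, ordered by number of libraries and mean rank) in the 16 libraries (horizontal axis, by genotype and replicate). Grey marks no peak. The upper 16 regions were open in all libraries, and the third Mir142hg region is grey across the 4 P300KO libraries.

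Blood genes were then taken as 149 coding genes in 6 lists of regulators. Of these, 64 (43.0%) had a lncRNA promoter within 100 kb, and 129 of 3623 lncRNA promoters (3.56%) lay within that distance. Such promoters were found more often than the other 3494, with a peak at 58.4% ± 6.28 against 47.2% ± 6.81 (mean ± SD, n = 16), a difference of 11.3 ± 2.54 points seen in 16 of 16 libraries (two-sided exact sign-flip permutation test, p = 3.05e-05, the smallest possible, adjusted p = 3.66e-05). The p-values of this paragraph measure how far the libraries agree over fixed sets of regions. Spread between regions does not enter them, and several of the 129 lay near the same gene. The gene lists were chosen with earlier results of these data known. The 129 also lay nearer a protein-coding start (median 22.9 kb against 34.8 kb) and were wider (median 483 bp against 343 bp). Whether these traits bear on the difference was not tested. Of the 129, 41 (31.8%) were open in 16 of 16 libraries, against 22.9% of the others. The ranks of the peaks present were not separated in this way, at a median of 61.9 ± 4.03 against 60.7 ± 1.59, higher in 10 of 16 libraries (exact permutation p = 0.219). That difference of 1.18 percentile points turned to -2.35 with a 250 kb limit and to -2.26 for promoters whose nearest coding start was a blood gene (exact permutation p = 0.000488 and 0.000244).

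By list, 19 lncRNA promoters lay near stem cell regulators, of which 4 were open in 16 of 16 libraries and 2 in 1 library. Myeloid regulators had 25, with 9 open throughout, and growth, survival and signalling genes 34, with 14. Near lymphoid regulators 4 of 26 were open throughout and near erythroid and megakaryocyte regulators 5 of 19, while 8 in each of these lists were seen in 1 library. Chromatin genes of myeloid disease had 7, of which 5 were open in all libraries.

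Near stem cell regulators the strongest was Gm27201 (chr9:32508361-32509354), inside the gene of the ETS factor Fli1, at 80.1, 90.7, 92.1 and 93.3 in WT and 89.6 to 95 elsewhere, so WT replicate 1 was the lowest. Gm38708, 3.8 kb from a start of Gata2, had a mean of 85.5 (79.7 to 88.5), Gm13133, in Prdm16, 80.3 (61.3 to 85.8), and Gm16140, in the homeobox gene Meis1, 66.3 (34.6 to 75.5). The myeloid list was led by Gm16897 (chr1:194976020-194977307), 37.1 kb from Cd34, which encodes a progenitor surface protein. It ranked at 92.7 to 97.0, with a mean of 95.4. Mir142hg lay 37.7 kb from Mpo, and Gm26692, 35.4 kb from the repressor gene Gfi1, had a mean of 87.6 (83.5 to 90.8).

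Near lymphoid regulators, D5Ertd605e, 17.5 kb from the receptor gene Flt3, had a mean of 94.4 (88.7 to 96.7). Gm30074, 87.8 kb from Foxo1, reached 90.2 (85.3 to 94.1). Gm26735 (chr13:28942660-28943495), 10.2 kb from Sox4, was the most variable. It ranked at 32.1, 81.5, 86.1 and 80.6 in WT and 56.2, 50.4, 69.9 and 73.1 in P300KO, against 73.8, 81.1, 84.9 and 83.6 in TET2KO and 64.7, 60.9, 74.3 and 71.2 in P300KO_TET2KO. Values without p300 loss ran from 32.1 to 86.1 and those with it from 50.4 to 74.3, so they overlapped. With WT replicate 1 set aside after the values were seen, those without p300 loss began at 73.8 and still overlapped. The region was not called in any comparison.

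In the erythroid and megakaryocyte list Gm28809, 64.1 kb from Vwf, had a mean of 88.8 (86.1 to 91.0), and C130071C03Rik, 67.9 kb from Mef2c, 49.6, with 8.1 in WT replicate 1, 8.4 in P300KO replicate 2 and at least 41.4 elsewhere. Bloodlinc, named after its values were seen because it is known from red cell development, lies 9.9 kb from Slc4a1, the band 3 gene. Its region found in all 16 lists (chr11:102375144-102376380) was weak, with a median of 24.6 (6.7 to 47.0) and means of 24.5 ± 13.2 in WT and 28.0 ± 17.6 in P300KO, and of 27.5 ± 8.62 in TET2KO and 28.3 ± 7.40 in P300KO_TET2KO (SD, n = 4). In the list of growth genes, Gm14009, 63.7 kb from the cell-death gene Bcl2l11, had a mean of 88.3 (81.9 to 92.4). 4833419O12Rik, 69.8 kb from Thpo, which encodes thrombopoietin, had 87.5 (80.7 to 91.0). Of the chromatin genes, Idh2 had 3 lncRNA promoters within 100 kb that were open in all libraries, the strongest at Gm21057 with 94.1 (91.5 to 95.5) and the others at Gm44949 and Gm45202 with 60.6 and 59.1.

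**Figure D3:**
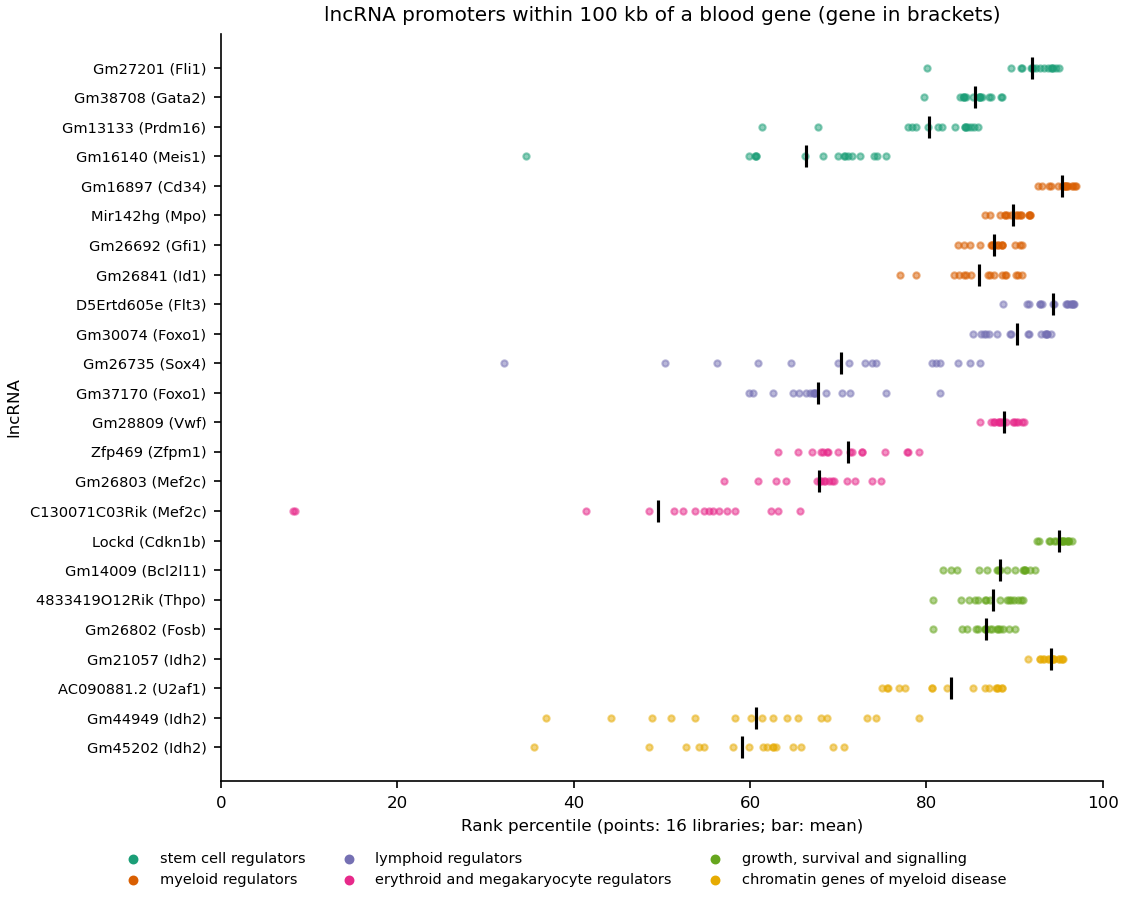
Rank percentile (x axis) in each of 16 libraries (points) and the mean (bar) of up to 4 lncRNA promoters per list of blood genes, with the neighbouring gene in brackets. The promoters near Cd34, Cdkn1b, Flt3 and 1 near Idh2 stay above 88 in all libraries, whereas those near Sox4 and Mef2c spread widely.

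Averaged over the 4 libraries, the share of open lncRNA promoters differed between genotypes by less than the spread between libraries. A peak was present at 47.5% ± 8.42 in WT and 47.0% ± 8.29 in P300KO, and at 47.7% ± 7.90 in TET2KO and 48.1% ± 5.15 in P300KO_TET2KO (mean ± SD, n = 4). Single libraries ran from 37.6% to 44.1% in set 1 and from 52.2% to 54.9% in set 2, so the sets did not overlap and the genotypes did. P300KO_TET2KO differed from TET2KO by 0.380 points (p = 0.83) and P300KO from WT by -0.455 (p = 0.743, two-sided exact permutation tests over 70 regroupings, whose smallest p is 0.0286). TET2KO differed from WT by 0.242 (exact p = 0.914) and P300KO_TET2KO from P300KO by 1.08 (exact p = 0.857). Over both backgrounds the difference was -0.038 points for p300 loss and 0.659 for Tet2 loss (exact permutation p = 0.963 and 0.525, labels exchanged within set and the other genotype). With labels exchanged only within sets, the pairwise exact permutation p in the same order were 0.667, 0.5, 0.833 and 0.722, and the smallest possible was 0.0556. P300KO_TET2KO lay apart in opposite directions in the sets. Its set 1 libraries, at 43.2% and 44.1%, were above the other 6, which reached 43.1%, and its set 2 libraries, at 52.8% and 52.2%, were below the other 6, which began at 53.4%. Against TET2KO the difference was thus 2.77 points within set 1 and -2.01 within set 2. Restricted to the strongest 50000 peaks of each list, the share was 23.7% to 27.0% in all 16 libraries.

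**Figure D4:**
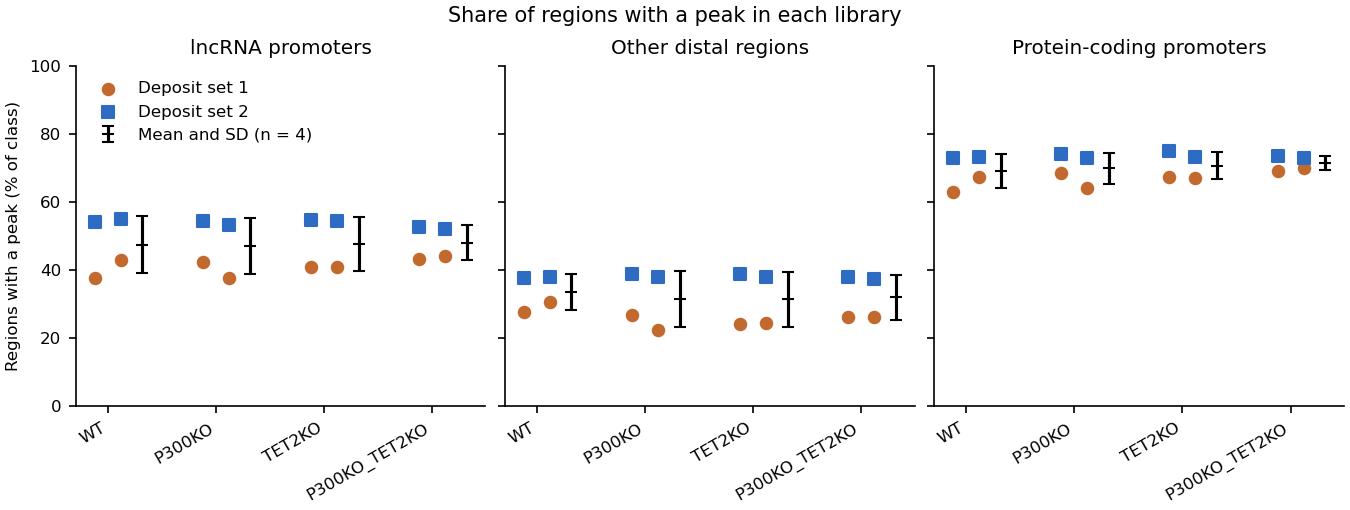
Share of regions with a peak (y axis, percent of the class) in each library by genotype (x axis) for lncRNA promoters, other distal regions and protein-coding promoters, with circles for deposit set 1, squares for set 2, and the mean and SD of 4 libraries beside them. In each class the sets separate and the genotype means overlap; for lncRNA promoters the means are 47.0% to 48.1%.

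The median rank percentile of the 841 promoters open in all libraries was likewise close across genotypes, at 82.0 ± 2.65 in WT and 80.9 ± 4.34 in P300KO, and at 81.1 ± 4.06 in TET2KO and 81.5 ± 2.93 in P300KO_TET2KO (SD, n = 4). The pairwise differences were 0.380 for P300KO_TET2KO against TET2KO, -1.05 for P300KO against WT, -0.891 for TET2KO against WT and 0.535 for P300KO_TET2KO against P300KO (exact permutation p = 0.686, 0.686, 0.771 and 0.971, and 0.389, 0.611, 0.556 and 0.944 within sets). Values ran from 75.2 to 81.7 in set 1 and from 83.7 to 84.9 in set 2.

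Promoters gained or lost outright were few. When a region had to be present in the 4 lists of one group and in 0 of the 4 of its comparator, P300KO_TET2KO against TET2KO had 1 gained lncRNA promoter and 0 lost, where 0.0587% and 0.013% of all merged regions were so called. P300KO against WT had 2 gained (0.0134% of all regions) and 1 lost (0.0106%). TET2KO against WT had 0 of either (0.0137% and 0.00721%), and for P300KO_TET2KO against P300KO there were 0 gains (0.0656%) and 2 losses (0.0312%).

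The lost region of P300KO against WT was the third Mir142hg region described above. The region gained in P300KO_TET2KO over TET2KO lay 732 bp from the start of Gm36756 (chr12:100985418-100985891), antisense within Ccdc88c. It was weak, at 9.9, 4.8, 10.9 and 14.5 in P300KO_TET2KO, was also found in P300KO replicates 3 and 4 at 28.5 and 16.8, and was absent from the 8 libraries with intact p300. Gm49643 (chr16:95301658-95302118), 22.5 kb from Kcnj15, had a peak in the 4 P300KO libraries and in no other, at 12.8, 10.5, 5.9 and 4.5, and it is both the gained region against WT and a lost one against P300KO_TET2KO. Gm15898 (chr8:120094595-120095068), within a coding gene and 6.4 kb from Zdhhc7, ranked at 13.5, 28.3, 34.4 and 42.0 in P300KO and was absent from WT. A930002I21Rik (chr3:107089990-107090790), 10.4 kb from Kcna2, was present in all WT and P300KO libraries, in TET2KO replicate 4 at 9.8, and in 0 of 4 P300KO_TET2KO libraries. All 4 of these lay in the lower part of the lists where present, at 0.3 to 51.2, and the Mir142hg region at 34.7 to 69.3.

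When 3 lists were enough on one side and 1 was allowed on the other, the gained and lost counts became 38 and 12 for P300KO_TET2KO against TET2KO (1.05% and 0.331% of lncRNA promoters, 1.18% and 0.525% of all regions). They were 29 and 20 for P300KO against WT (0.800% and 0.552%, against 0.737% and 0.594%). For TET2KO against WT they were 20 and 17 (0.552% and 0.469%, against 0.643% and 0.564%), and for P300KO_TET2KO against P300KO 55 and 25 (1.52% and 0.690%, against 1.1% and 0.585%). The share of lncRNA promoters was above that of all regions in 3 of these 8 counts and below it in the other 5, and the differences were not tested. The contrasts share libraries and are not independent.

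Rank was then compared region by region with limma, on normal scores of the rank within a list, so that 1 unit is 1 SD of the list, with deposit set as a term and Benjamini-Hochberg adjustment over all 38694 regions found in 16 of 16 libraries. Over both Tet2 backgrounds 10 of the 841 lncRNA promoters (1.19%) were called lower with p300 loss, which always came with Cre, and 0 higher. Of all tested regions 0.979% and 0.284% were so called. The share of lncRNA promoters was thus near that of all regions, and their median change was -0.0032, against 5.82e-05 for all regions. Of the 10, 5 are described here by size of change.

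Gm15318, an antisense lncRNA 9.2 kb from the start of Tff2, a trefoil peptide gene, changed most. It ranked at 76.0, 68.6, 80.4 and 74.3 in WT, 64.8, 70.6, 77.2 and 77.4 in TET2KO, 33.4, 45.9, 63.2 and 58.2 in P300KO, and 36.5, 45.9, 55.7 and 64.5 in P300KO_TET2KO. The 8 libraries with p300 loss all lay below the 8 others. The change was -0.63 ± 0.09 (SE, limma adjusted p = 0.00234), and it stayed past the threshold without any 1 of the 16 libraries (highest adjusted p = 0.00929).

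Gm15122 (chr10:80281851-80282499), 9.95 kb from the ribosomal protein gene Rps15, ranked at 46.9 to 78.6 (median 71.7) with p300 and at 28.0 to 62.2 (median 41.0) without it, a change of -0.62 ± 0.12 (limma adjusted p = 0.0171). These ranges overlapped through TET2KO replicate 1, at 46.9. Gm36756 (chr12:100986380-100987134), within Ccdc88c, fell from a median of 84.8 (70.3 to 91.1) to 71.5 (46.9 to 82.9), a change of -0.46 ± 0.09 (limma adjusted p = 0.0176), and is the neighbour of the weak region gained in P300KO_TET2KO. 4930519L02Rik, 134.7 kb from Pkn2, had medians of 78.5 and 67.2 (-0.40 ± 0.09, limma adjusted p = 0.0236), and Gm31804 85.8 and 71.3 (-0.39 ± 0.08, limma adjusted p = 0.0231). Within set 2 the libraries with and without p300 loss did not overlap at any of these 5, and within set 1 they overlapped at Gm36756 and not at the other 4. Without TET2KO replicate 4, Gm15122, Gm36756, 4930519L02Rik and Gm31804 were no longer called, with highest adjusted p over the left-out libraries of 0.0547, 0.0506, 0.0632 and 0.0596 (limma). Gm15122 and Gm36756 were called in 15 of the 16 fits that left out 1 library. 4930519L02Rik and Gm31804 were called in 12, since leaving out other TET2KO or P300KO_TET2KO libraries also ended their calls. The remaining 5 changed by -0.19 to -0.35, among them Gm29243 by -0.27. Gm29243 was called in 15 of the 16 such fits and the others in 4 to 6.

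**Figure D5:**
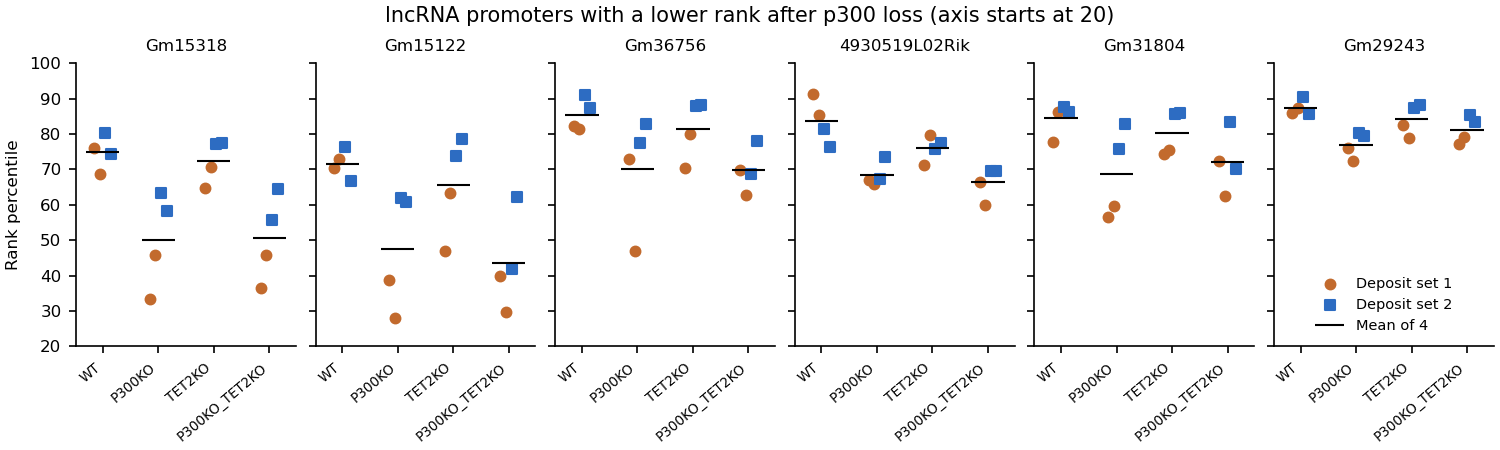
Rank percentile (y axis, from 20) in each library by genotype (x axis) at 6 lncRNA promoters whose rank was lower with p300 loss, with circles for deposit set 1, squares for set 2 and lines for the mean of 4. At Gm15318 the P300KO and P300KO_TET2KO points, 33.4 to 64.5, lie below all others, 64.8 to 80.4.

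P300KO against WT called 3 lncRNA promoters lower and 0 higher (0.183% and 0.0129% of all regions), namely Gm15318 (-0.67 ± 0.13, limma adjusted p = 0.0406), Gm29243 (-0.41 ± 0.07, limma adjusted p = 0.0235) and Gm17122 (-0.27 ± 0.05, limma adjusted p = 0.0469). Gm29243 (chr8:34215301-34216909), 60.7 kb from Saraf, ranked at 86.0, 87.4, 90.5 and 85.6 in WT and at 75.9, 72.5, 80.1 and 79.4 in P300KO, without overlap. Gm17122 (chr5:113841539-113842788), 8.9 kb from Selplg, the P-selectin ligand gene, ranked at 85.9, 86.1, 94.1 and 92.4 in WT and 78.3, 78.5, 89.3 and 89.8 in P300KO. At Gm17122 the groups overlapped overall and separated within each set. In TET2KO and P300KO_TET2KO this region had means of 89.0 ± 4.3 and 89.3 ± 4.2, and the interaction of p300 and Tet2 loss was 0.28 ± 0.08 (limma adjusted p = 0.936), with 0 interaction calls among the 841. With the replicate number as a block, 1 of the 3 remained called.

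P300KO_TET2KO against TET2KO, TET2KO against WT and P300KO_TET2KO against P300KO each called 0 lncRNA promoters by limma in either direction. For all regions the higher and lower shares were 0.00517% and 0.0129%, 0% and 0%, and 0.0336% and 0.0543%. At an unadjusted p under 0.05 the higher and lower counts among the 841 were 34 (4.04%) and 28 (3.33%), 23 (2.73%) and 54 (6.42%), and 38 (4.52%) and 32 (3.80%). Of all regions tested, 3.36% and 2.77%, 3.06% and 6.27%, and 4.48% and 2.81% passed the same limit. For Gm15318 the change in P300KO_TET2KO against TET2KO was -0.59 ± 0.13 (limma adjusted p = 0.176), beside -0.67 in P300KO against WT.

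Over both p300 backgrounds 3 lncRNA promoters were called lower with Tet2 loss and 1 higher (0.274% and 0.114% of all regions). 1110019B22Rik (chr10:95721853-95722690) changed most. It ranked at 58.7, 56.8, 67.8 and 64.7 in WT and 64.6, 68.2, 55.2 and 55.0 in P300KO, against 24.0, 36.7, 41.4 and 42.3 in TET2KO and 11.7, 32.5, 22.8 and 44.6 in P300KO_TET2KO. All 8 Tet2-null libraries lay below the 8 others, with a change of -0.79 ± 0.14 (limma adjusted p = 0.0156, at most 0.0466 without any 1 library). Gm13919, inside Ldlrad3, had medians of 85.0 with Tet2 and 72.2 without (-0.35 ± 0.06, limma adjusted p = 0.0149), and Gm16350, inside Arhgef10, 83.5 and 69.99 (-0.42 ± 0.09, limma adjusted p = 0.0427). Gm13919 was called without any 1 library and Gm16350 in 4 of the 16 such fits. AC166164.1, 7.8 kb from Oard1, was higher at 84.3 (80.0 to 86.7) against 78.2 (68.8 to 83.2), a change of 0.28 ± 0.06 (limma adjusted p = 0.0298). With the replicate block, Gm16350 and AC166164.1 were no longer called (limma adjusted p = 0.0600 and 0.0610).

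In all, 15 lncRNA promoters were called in any of these contrasts. None of the 15 had a listed blood gene within 100 kb, where 41 of the 841 tested did, 1 was CpG-rich, against 22.9% of the 841, and 10 covered the lncRNA start, as did 541 of the 841 (64.3%). The counts rest on few libraries. The 10 lower with p300 loss became 23 without WT replicate 1, 6 without WT replicate 3, P300KO replicate 3 or P300KO_TET2KO replicate 3, 5 without P300KO_TET2KO replicate 4, 4 without TET2KO replicate 3 and 1 without TET2KO replicate 4. Without the set term 0 were called, and ranking among shared regions gave 24 lower and 9 higher. Shares of all regions are not given for these alternative fits. The 3 of P300KO against WT became 7 without WT replicate 1, 0 without WT replicate 2 or 3 or P300KO replicate 2, 3 or 4, and 1 without P300KO replicate 1, any TET2KO library, or P300KO_TET2KO replicate 2, 3 or 4. For Tet2 loss the 3 lower became 6 and 5 without WT replicates 1 and 2, and the 1 higher became 2 without WT replicate 1 and 0 without WT replicate 3, P300KO replicate 4, TET2KO replicate 1 or 2, or P300KO_TET2KO replicate 2, 3 or 4.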

How the data were processed

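Peak lists of 16 ATAC-seq libraries were used, 4 per genotype. Per the study's methods and the submitters' processing notes, the authors trimmed reads with cutadapt 1.9.1, aligned them to mm10 with Bowtie2 2.2.6 and called peaks in each library with MACS2 2.1.0. The deposited lists give each peak's −log10 p-value, its −log10 q-value and its fold enrichment. A display score written by the authors' peak caller is also in the deposited lists and was not used. The lists hold no read counts, so depth is unknown, and the smallest −log10 p was 2.00. Members and gene lists were chosen with earlier results of these data known.

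Regions were annotated with GENCODE M21. Rank was taken over the whole list, with several summits of an interval counted as 1 peak and ties at their middle. The text names listed lncRNAs, the 10 regions of highest mean rank, up to 4 regions near each blood gene list, up to 5 called in each direction of a contrast, and every region gained or lost. Models were fitted with limma 3.58.1 in R 4.3.3. All else was computed in Python 3.11.15 (scipy 1.17.1, numpy 2.4.6, pandas 2.3.3), with pysam 0.24.0 for sequence and matplotlib 3.10.9 for plots. In simulated ranks for P300KO_TET2KO against TET2KO over 38694 regions, 131 of 200 planted changes of 0.5 and 181 of 200 of 1 were recovered, with 10 false calls. The simulated noise was normal, independent between regions and, for a given region, equally wide in every library. A library that stands apart, as WT replicate 1 did, was therefore not simulated, and recovery in the real lists was not measured.

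Same-numbered libraries deviated together from their genotype means (r of 0.127 to 0.506 over regions, above 0.1 in 24 of 24 pairs). After the means of the deposit sets were removed, r was -0.351 to 0.0666 and above 0.1 in 0 of 24 pairs. These values do not show that same-numbered libraries were matched. The replicate number was used as a block in an alternative fit only. Alternatives covered the set term, block, rank scale, peak threshold, overlap, start distance and each library in turn. The within-set ranges of called regions and the libraries named as moving a count were added after seeing the data. Some listed markers and the sequence of 1 named region are not reported here.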

Additional observations from a re-analysis of the deposited data

Results flagged for a closer look

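In 11 of 252 groups of 4 libraries, from 59 named regions and 4 measures over all lncRNA promoters in 4 genotypes, 1 library lay far from the other 3 by Dixon's test, where chance gives about 1 in 20. At lower values, Gm26735 near Sox4 was 32.1 in WT replicate 1 against 80.6 to 86.1, Gm31804 was 77.6 in WT replicate 1 against 86.3 to 87.5, and Malat1 was 95.7 in WT replicate 2 against 97.5 to 97.8. Gm16140 in Meis1 was 60.6 in P300KO_TET2KO replicate 1 against 70.7 to 71.1, and Trp53cor1 was 75.8 in TET2KO replicate 2 against 83.9 to 84.1. 1700096K18Rik was 99.1 in P300KO replicate 1 against 99.8 to 100.0, and AC110262.3 was 98.5 in TET2KO replicate 1 against 99.1 to 99.3. Gm38708 near Gata2 was 83.8 in P300KO replicate 2 against 85.9 to 86.2, and at a higher value 88.5 in WT replicate 2 against 84.1 to 84.3. Also higher were Pvt1, at 78.7 in P300KO_TET2KO replicate 4 against 76.3 to 76.6, and AC166164.1, at 85.9 in TET2KO replicate 4 against 84.2 to 84.4. All values are rank percentiles within a list, and no cause was tested.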

How the results depend on the processing

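The differences between lncRNA promoters and the other classes kept direction and threshold under all settings tried. The cause of the following moves was not tested. The pairwise contrasts are called A (P300KO_TET2KO against TET2KO), B (P300KO against WT), C (TET2KO against WT) and D (P300KO_TET2KO against P300KO), and values follow this order, with p300 loss and Tet2 loss after them. For presence, direction turned in set 2 alone for A (-2.01), D (-1.44) and Tet2 loss (-0.697), and in set 1 alone for p300 loss (1.2). For P300KO against WT and p300 loss it turned when −log10 q had to reach 2 (2.51, 2.31), the strongest 50000 peaks (0.345, 0.210), a 500 bp limit (0.0406, 0.147) and 50% coverage of a region (0.0621, 1.02). For median rank it turned with the strongest 50000 peaks for A to D and p300 loss (-0.0618, 0.192, 0.056, -0.197, 0.0649), in set 2 alone for A to D and Tet2 loss (-0.594, 0.325, 0.644, -0.274, 0.185), with ranks by fold enrichment for A and D (-0.419, -0.440), and with q for B, C and both losses (3.84, 4.69, 2.75, 3.6).

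Counts by limma moved as follows, and shares of all regions are given above for the main fit only. Without the set term, P300KO against WT called 0 lower, p300 loss 0 lower, and Tet2 loss 0 higher and 0 lower. With the replicate block, P300KO against WT called 1 lower and Tet2 loss 0 higher. The block moved no other count by over 1.5 times, with 7 lower for p300 loss and 2 for Tet2 loss. Untransformed ranks gave 0, 5 lower and 0 higher for P300KO against WT, p300 loss and Tet2 loss. Ranking among shared regions gave 1 lower in A and D, 1 higher and 9 lower in B, 9 higher and 24 lower for p300 loss, and 3 higher and 8 lower for Tet2 loss. Regions in at least 12 libraries gave 0 lower in B, 2 lower for p300 loss, and 0 and 0 for Tet2 loss. Fold ranks gave 1 lower in A and B, 4 higher and 2 lower for p300 loss, and 0 higher and 1 lower for Tet2 loss.

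Gained and lost regions in A to D numbered 83 and 5, 70 and 15, 77 and 22, and 94 and 16 in set 1, and 35 and 53, 30 and 48, 31 and 38, and 32 and 45 in set 2. Each set held 2 libraries of a genotype, so a set count asked for presence in 2 lists and absence from 2. That rule is looser than the main one. Shares of all regions are given above for the main rule and for 3 against 1 library only. The other counts show how a setting moves a count and are not a result about lncRNA promoters. With 3 against 1 library they were 38 and 12, 29 and 20, 20 and 17, and 55 and 25. With q, A had 2 and 1, B 0 gained, and D 1 gained and 0 lost. The strongest 50000 gave 0 gained and 2 lost in A, 4 lost in B, 1 lost in C and 6 lost in D. With 50% coverage A had 6 gained, B 1 and 2, C 1 and 1, and D 6 and 0. The 500 bp limit gave 0 gained in A and 0 lost in B. The rank difference of promoters near blood genes was -0.442 with 500 bp, -0.444 in set 1, 2.81 in set 2 (exact permutation p = 0.0313), -2.35 with 250 kb and -2.26 by nearest start.

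Leaving out each library gave ranges, in the same order, for presence of -1.92 to 2.71, -3.68 to 2.68, -2.99 to 2.73, -2.06 to 3.58, -0.700 to 0.624 and -0.00345 to 1.32, and for rank of -0.901 to 1.66, -2.27 to 0.876, -2.17 to 0.391, -1.39 to 1.76, -0.941 to 0.276 and -0.786 to 0.430. Calls were 0 to 1 each way in A and D (1 lower without WT replicate 1), 0 to 7 lower in B, 0 to 6 higher and 1 to 23 lower for p300 loss, and 0 to 2 higher and 2 to 6 lower for Tet2 loss. Gained and lost ranged over 1 to 6 and 0 to 2, 2 to 4 and 1 to 3, 0 to 3 and 0 to 3, and 0 to 9 and 2 to 5. Missing read counts limit every value, since a peak below the caller's threshold is not seen.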
